A study of Mus musculus with 2 samples.

Results

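The transcripts of *Egfr*, *Fgfr3* and *Ngfr*, 3 growth factor receptors among the 500 genes of a commercial brain panel, were mapped in coronal sections of the E16.5 mouse head. They were taken by name, 3 of 500, with no threshold on a measured value, although earlier results of these data were known. MERFISH, a multiplexed in situ hybridization with error-robust barcodes, reads single RNA molecules in tissue, here on the MERSCOPE platform, and 1 section of 10 µm was imaged per genotype. The control section came from an *Sst-Cre/tdTomato* embryo, and the knockout (KO) section from an *Sst-Cre/tdTomato/Dnmt1 loxP2* embryo. Both carried the Cre recombinase under the somatostatin gene and the tdTomato reporter, so that deletion of the DNA methyltransferase gene *Dnmt1* was directed to *Sst*-expressing cells in the KO embryo only. *Dnmt1* was not among the genes analysed here, and the deletion could not be checked.

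EGFR, the receptor for EGF and TGF-alpha, and FGFR3, a receptor for fibroblast growth factors, are receptor tyrosine kinases. NGFR, also called p75NTR, binds all neurotrophins, has no kinase domain and belongs to the tumour necrosis factor receptor family. In the developing forebrain, EGFR is known from late progenitors and glial precursors, FGFR3 from radial glia of the ventricular zone, and NGFR from subplate neurons, cholinergic neurons and the neural crest lineage. All 3 receptors are also used in tissues outside the brain, including skin, cartilage and connective tissue.

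The *Egfr* probes were assigned to transcript ENSMUST00000020329, on the plus strand of chromosome 11 at 16702198 to 16868158 (GRCm39). *Ngfr* (ENSMUST00000000122) lies on the minus strand of the same chromosome at 95459644 to 95478561, and *Fgfr3* (ENSMUST00000202138) on the plus strand of chromosome 5 at 33879580 to 33894412. All are annotated as protein-coding in GENCODE, and the coordinates span the whole transcript with its exons, introns and untranslated regions.

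The control section held 108533 segmented cells and 2842355 panel transcripts, and the KO section 110004 cells and 13437174 transcripts, so that the median cell had 20 transcripts in the control and 101 in the KO. The KO section was therefore the more precise, and levels were taken as transcripts per 1000000 counted panel transcripts (CPM). The 50 blank barcodes, which match no RNA, averaged 99.7 CPM in the control and 97.8 CPM in the KO, and a level near 100 CPM was taken as background. The highest single blank stood at 292 CPM in the control and 241 CPM in the KO, so that levels below these are within the range of blanks. No cell identifier was shared by the sections. With 1 section per genotype there was no spread between embryos and no test, and imaging run, section plane and genotype cannot be told apart. The 95% intervals are exact Poisson intervals for levels and exact binomial intervals for shares, and cover counting error only. Intervals of log2 ratios were taken from opposite ends of both Poisson intervals and are wider than 95% intervals. For observed over expected numbers of cells, the Poisson interval of the observed number was used, with the expected number taken as fixed.

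Over all cells, each receptor had a lower level in the KO section than in the control section, by less than 2-fold. *Egfr* was counted 5585 times in the control, at 1965 CPM (95% interval 1914 to 2017), and 19444 times in the KO, at 1447 CPM (1427 to 1468), a log2 ratio of KO over control of -0.44. *Ngfr* was counted 3214 times in the control, at 1131 CPM (1092 to 1171), and 10300 times in the KO, at 767 CPM (752 to 781), a log2 ratio of -0.56. *Fgfr3*, the sparsest of the 3, was counted 1412 times at 497 CPM (471 to 523) and 5890 times at 438 CPM (427 to 450), a log2 ratio of -0.18. The intervals of the control and KO levels did not overlap for any receptor. Over all 500 panel genes the median log2 ratio was 0.12, with 5% of genes below -0.64, and 7.4% of genes lay below *Ngfr*, 10.6% below *Egfr* and 22.2% below *Fgfr3*. None of the 3 passed a 2-fold difference, which 3.2% of panel genes passed upwards and 1.2% downwards. In such sums over a tissue, fewer cells of a type and less RNA per cell cannot be told apart.

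Outside the brain, the levels of *Egfr* and *Ngfr* were several times those in neural tissue in both sections, whereas *Fgfr3* differed little between the tissues. Tissue was called mesenchymal where transcripts of 8 connective tissue genes (among them *Dcn*, *Osr1*, *Thbs2* and *Col15a1*) outnumbered those of 17 neural genes, and no receptor was in either list. The mesenchymal area was 4.31 square mm in the control and 4.89 square mm in the KO, and the map of the control shows little of it along the dorsal surface of one side. In the control section 20799 cells lay in mesenchymal and 87205 in neural tissue, and in the KO section 22199 and 85168. *Egfr* stood at 5582 CPM (5412 to 5756) in mesenchymal and 721 CPM (685 to 758) in neural tissue of the control, 7.75-fold apart, and at 4618 CPM (4541 to 4695) and 541 CPM (527 to 555) in the KO, 8.54-fold apart. Cells lying in mesenchymal tissue, of whatever type, thus held 72.7% of the *Egfr* transcripts of the control section and 70.9% of those of the KO section.

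*Ngfr* stood at 2818 CPM (2697 to 2942) in mesenchymal and 549 CPM (518 to 582) in neural tissue of the control, a 5.13-fold difference. In the KO section the levels were 2069 CPM (2018 to 2122) and 395 CPM (383 to 407), a 5.24-fold difference. *Fgfr3* stood at 637 CPM (580 to 697) and 449 CPM (421 to 478) in the control and at 651 CPM (622 to 680) and 378 CPM (366 to 390) in the KO, 1.42-fold and 1.72-fold higher in mesenchymal tissue. The direction for *Fgfr3* depended on the scale: counted as molecules per square mm, the mesenchymal density was 473 and the neural density 511 in the KO section, a log2 ratio of -0.11.

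The 2 sides of each section gave a measure of the spread within an embryo. On all 4 sides the log2 ratio of mesenchymal over neural tissue lay between 2.85 and 3.13 for *Egfr*, between 1.98 and 2.55 for *Ngfr* and between 0.39 and 0.84 for *Fgfr3*. The mesenchymal level of *Ngfr* was unequal between the sides, at 3310 and 1907 CPM in the control and 2358 and 1544 CPM in the KO. Over the 4 pairings of a KO side with a control side, its mesenchymal log2 ratio of KO over control ran from -1.10 to 0.31, so that the difference between genotypes was within the spread between sides. The same pairings gave -0.49 to -0.05 for mesenchymal *Egfr* and -0.58 to -0.24 for neural *Egfr*, and -0.62 to -0.26 for neural *Ngfr*. For *Fgfr3* they gave -0.05 to 0.07 in mesenchymal and -0.42 to -0.04 in neural tissue. In mesenchymal tissue the median log2 ratio over the panel was 0.31, and 8.4% of genes were at least 2-fold higher in the KO and 0.4% at least 2-fold lower, none of the receptors among them.

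**Figure D1:**
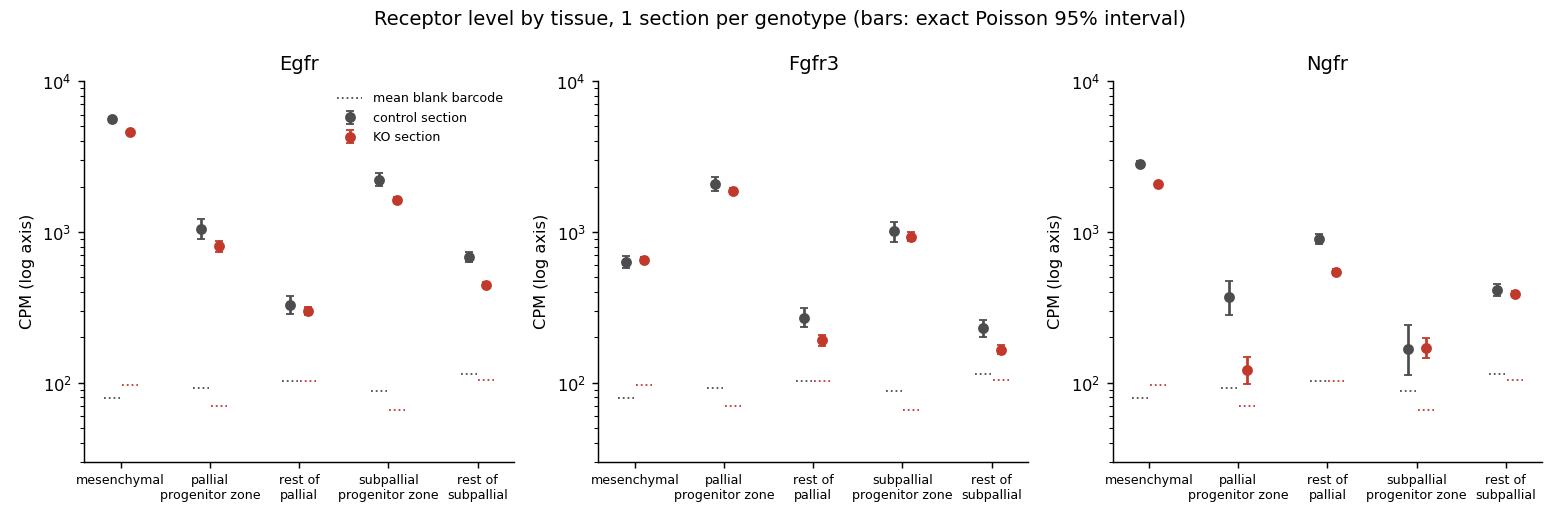
Level of each receptor in CPM on a log axis in mesenchymal tissue and in the progenitor zone and the remainder of pallial and subpallial neural tissue. Points are the control (grey) and KO (red) sections with exact Poisson 95% intervals, and dotted ticks the mean blank barcode. *Egfr* and *Fgfr3* stand higher in the progenitor zones than in the remainder, and *Ngfr* lower.

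Within the brain, the levels of *Egfr* and *Fgfr3* were higher in the progenitor zone than outside it, and that of *Ngfr* was lower. The neural cells were ordered by the share of progenitor transcripts in their surroundings and divided into 10 classes of equal size, of which the 2 highest made up the zone, by a list of 8 panel genes including *Hopx*, *Sox9*, *Aldoc*, *Olig2*, *Top2a* and *Eomes*. *Fgfr3* was 6.19-fold higher in the zone than in the remaining neural tissue of the control, at 1523 CPM (1394 to 1661) against 246 CPM (224 to 270), and 7.69-fold higher in the KO, at 1347 CPM (1294 to 1402) against 175 CPM (167 to 184). Blank barcodes averaged 109 and 104 CPM in that remaining tissue. Both *Fgfr3* levels there lay below the highest single blank of the section, and the folds were not corrected for background. *Egfr* was 3.04-fold higher in the control, at 1654 CPM (1519 to 1798) against 545 CPM (511 to 580), and 3.24-fold higher in the KO, at 1264 CPM (1212 to 1317) against 390 CPM (377 to 403). *Ngfr* was at 265 CPM (213 to 326) in the zone and 603 CPM (567 to 640) outside it in the control, and at 149 CPM (131 to 167) and 446 CPM (432 to 461) in the KO. Over the 4 pairings of sides its log2 ratio of KO over control in the zone ran from -1.24 to -0.34.

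*Fgfr3* and *Egfr* followed the progenitor gradient differently. *Fgfr3* was high mainly in the highest class, at 2457 CPM (2222 to 2709) in the control and 2252 CPM (2155 to 2353) in the KO, against 634 and 458 CPM in the class below it. *Egfr* stood at 1600 and 1085 CPM in that class and at 1711 and 1445 CPM in the highest. The dorsal and ventral zones also differed. *Fgfr3* was higher in the pallial than in the subpallial zone, at 2070 against 1007 CPM in the control and 1870 against 931 CPM in the KO, and *Egfr* was lower, at 1050 against 2223 CPM and 801 against 1632 CPM. The intervals of the pallial and subpallial zones did not overlap for either gene in either section.

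Along the pallial zone, the lateral end was rich in *Egfr* and the middle in *Fgfr3*. The midline was the line through the centre of neural cells, from the pallial towards the subpallial centre, and was not placed by anatomy. *Fgfr3* stood at 826 CPM (490 to 1306) within 250 µm of the midline of the control, rose to 3700 CPM (2934 to 4605) at 750 to 1000 µm, and stood at 834 CPM (101 to 3014) beyond 1250 µm, where 2 transcripts were counted. The KO section gave 846 CPM (682 to 1038), 3070 CPM (2761 to 3405) and 1046 CPM (620 to 1654) at the same places. The step with the highest level was 750 to 1000 µm on all 4 sides, although on side B of the control, at 2837 CPM, it hardly differed from the next, at 2824 CPM. *Egfr* stood at 351 CPM (197 to 580) at 500 to 750 µm and at 4172 CPM (2001 to 7672, 10 transcripts) beyond 1250 µm in the control. In the KO it stood at 327 CPM (236 to 440) at 500 to 750 µm, 2194 CPM (1939 to 2474) at 1000 to 1250 µm and 1628 CPM (1082 to 2353) beyond. Near the midline the sections differed, with *Egfr* at 1469 CPM (1005 to 2074) in the control and 304 CPM (209 to 426) in the KO. The share of panel genes differing as much in this step was not taken, and whether the midlines match between sections was not tested.

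**Figure D2:**
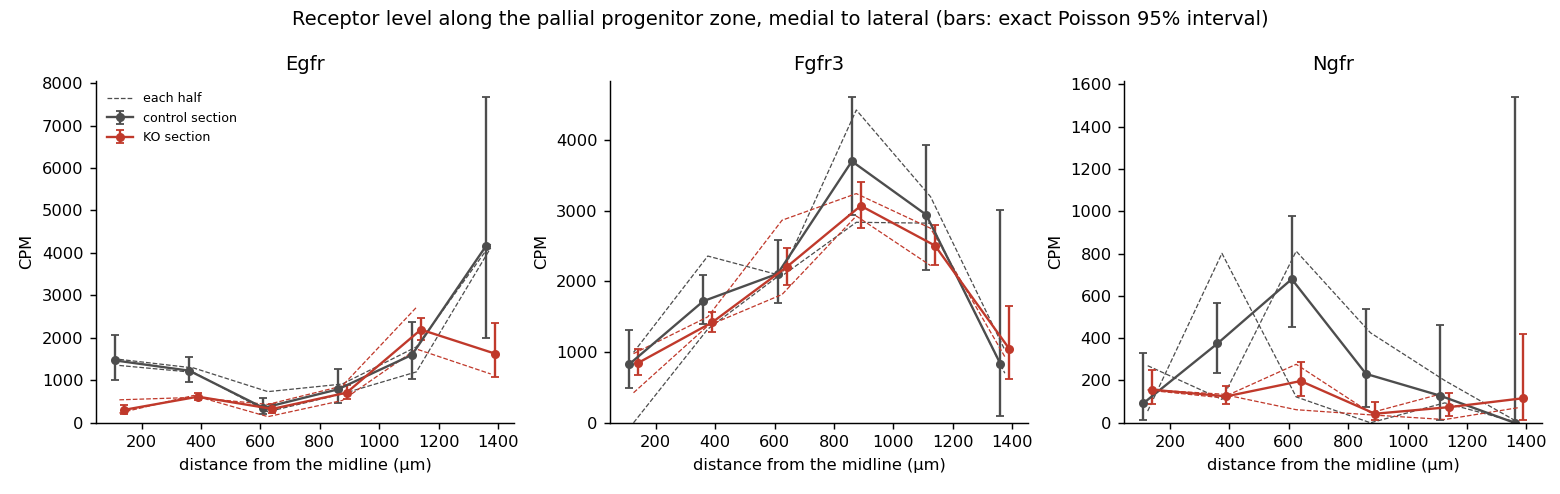
Level of each receptor in CPM along the pallial progenitor zone, in steps of 250 µm from the midline. Solid lines are the control (grey) and KO (red) sections with exact Poisson 95% intervals, and dashed lines the sides of each section with at least 50 cells in the step. *Fgfr3* peaks at 750 to 1000 µm in both sections, and *Egfr* is highest beyond 1000 µm.

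In the cortical wall *Ngfr* formed a band on the surface side of the zones of the other receptors. By distance from the brain surface, *Ngfr* in pallial cells was highest at 250 to 300 µm in the control, at 1826 CPM (1516 to 2180), and at 150 to 200 µm in the KO, at 1264 CPM (1160 to 1374). At 400 to 450 µm it stood at 77.8 CPM (16.0 to 227, 3 transcripts) and 29.2 CPM (10.7 to 63.5, 6 transcripts), which is background. Its highest step lay deeper than that of *Fezf2*, a deep-layer neuron gene, at 150 to 200 µm in the control and 100 to 150 µm in the KO. It lay nearer the surface than that of *Nxph4*, a subplate gene, at 300 to 350 µm and 250 to 300 µm. The sides of the control section were not alike: the band was highest at 250 to 300 µm on side A, at 2693 CPM, and at 150 to 200 µm on side B, at 1879 CPM, the step found on both sides of the KO section (1205 and 1330 CPM). *Fezf2* was also highest at 150 to 200 µm on side B of the control, so that the order of *Ngfr* and *Fezf2* did not hold on that side. *Fgfr3* reached 2573 CPM (1884 to 3433) at 650 to 700 µm in the control and 2643 CPM (2352 to 2961) at 550 to 600 µm in the KO.

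**Figure D3:**
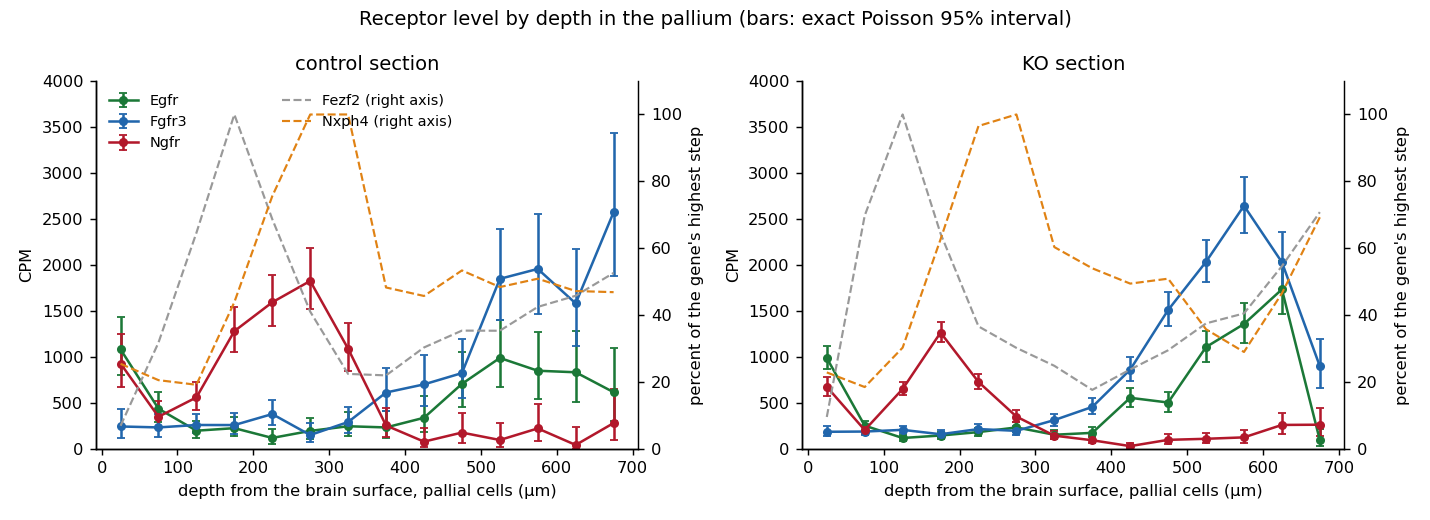
Level of the receptors in CPM (left axis, exact Poisson 95% intervals) by depth from the brain surface in pallial cells, in steps of 50 µm, for the control (left) and KO (right) sections. Dashed lines give *Fezf2* and *Nxph4* as percent of their own highest step (right axis). Over whole sections and without the outermost 50 µm, *Ngfr* is highest deeper than *Fezf2* and no deeper than *Nxph4*, at 1826 CPM in the control and 1264 CPM in the KO, and *Fgfr3* rises towards the ventricle.

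Across pallial tissue *Ngfr* stood at 799 CPM (740 to 860) in the control and 459 CPM (439 to 480) in the KO, a log2 ratio of -0.80 (-0.97 to -0.62). In subpallial tissue it stood at 377 CPM (344 to 413) and 353 CPM (339 to 368), a log2 ratio of -0.10 (-0.29 to 0.10). The median log2 ratios over the panel were 0.02 and 0.09. In the pallial progenitor zone *Ngfr* was counted 60 times in the control, at 369 CPM (281 to 474), and 97 times in the KO, at 121 CPM (98.3 to 148), a log2 ratio of -1.60 (-2.27 to -0.93). It was the only receptor past 2-fold there, where 10.8% of panel genes were at least 2-fold lower in the KO and 7.41% at least 2-fold higher. The control transcripts lay mainly in 1 step of each side, with 28 at 500 to 750 µm from the midline on side A (811 CPM, 539 to 1173) and 18 at 250 to 500 µm on side B (801 CPM, 475 to 1266). In the other steps 0 to 5 were counted, so that the 2-fold difference rests on these places. Which types of cell held these transcripts was not counted. In the KO the sides stood at 61.9 and 277 CPM (175 to 415, 23 transcripts) at 500 to 750 µm and at 135 and 118 CPM at 250 to 500 µm, and the sides of the sections are not matched to each other. Blank barcodes averaged 92.4 CPM in that zone of the control and 70.1 CPM in that of the KO.

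To place the receptors in cell types, cells with at least 20 transcripts (50.9% of control and 92.0% of KO cells) were grouped into 25 clusters without the receptors themselves. A cluster was named only where at least 3 of its 10 leading genes belonged to 1 marker list and fewer to any other, and is otherwise called by its leading genes. *Egfr* was highest in clusters of tissue outside the brain. The mesenchymal-like cluster led by *Shisa3*, *Thbs2* and *Hhip* stood at 9104 CPM (8675 to 9547) in the control and 7709 CPM (7493 to 7929) in the KO, and held 33.9% and 25.0% of the *Egfr* transcripts of clustered cells. The unnamed cluster led by *Slc7a11*, *Crabp2* and *Bmp4* stood at 7737 and 7721 CPM. The intervals of these 2 clusters overlapped in the KO but not in the control. A small unnamed cluster led by *Lama3*, a laminin of epithelial basement membrane, and *Aldh1a1* was highest in the KO, at 15123 CPM (14201 to 16089) in 570 cells, against 7842 CPM (5522 to 10810) in 115 cells of the control. With the KO thinned to the control total before clustering, the highest *Egfr* in the KO was instead 7223 CPM, in the *Shisa3* cluster. That ranking took only clusters with at least 100 cells in each section. Of the 570 KO cells 478 lay on side A, at 16531 CPM, and 92 on side B, at 7679 CPM, against 9934 and 6144 CPM in the control.

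Among neural clusters *Egfr* was highest in a progenitor-like cluster lying mostly outside the pallium and in oligodendrocyte precursor-like cells. The radial glia or progenitor-like cluster led by *Aldh1l1*, *Olig2* and *Ednrb*, of which 20.7% of control and 7.69% of KO cells were pallial, stood at 4121 CPM (3727 to 4546) and 3273 CPM (3120 to 3432). The oligodendrocyte precursor-like cluster (*Gpr17*, *Olig1*, *Bcan*) stood at 3371 CPM (2757 to 4081) and 3166 CPM (2916 to 3431), which overlapped the former in both sections. The radial glia or progenitor-like cluster led by *Hopx*, *Aldoc* and *Eomes*, 92.3% and 94.5% pallial, stood at 873 CPM (657 to 1136) and 967 CPM (883 to 1056). The cluster of *Mc4r*, *Fezf2* and *Ntsr1*, deep-layer neuron-like by its markers, was lowest of all 25, at 39.9 and 71.2 CPM, at or below background.

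For *Fgfr3* the order of the progenitor clusters was turned around. The *Hopx* cluster stood at 2729 CPM (2337 to 3169) in the control and 2749 CPM (2607 to 2897) in the KO, above the *Aldh1l1* cluster at 1381 CPM (1157 to 1635) and 1635 CPM (1528 to 1749). The oligodendrocyte precursor-like cluster, at 1670 CPM (1247 to 2189) and 1473 CPM (1305 to 1658), overlapped the latter in both sections. Outside the brain, *Fgfr3* was highest in a small unnamed cluster led by *Col9a2* and *Hapln1*, which encode cartilage matrix proteins, at 4865 CPM (3327 to 6868) in 170 control cells and 5160 CPM (4264 to 6189) in 413 KO cells. That rank depended on the clustering: with the KO thinned to the control total first, the highest levels were 2560 CPM (*Hopx* cluster) in the control and 2846 CPM (a cluster led by *Aldh1l1* and *Ednrb*) in the KO, and at a clustering resolution of 1.2 they were 4109 CPM (*Lama3* cluster) and 2771 CPM (*Hopx* cluster). These alternatives ranked only clusters with at least 100 cells in each section, and the cells of the *Col9a2* cluster were not followed between clusterings. In the main clustering, *Fgfr3* outside the brain was next highest in the *Lama3* cluster, at 4027 CPM (2425 to 6289), which overlapped the *Col9a2* cluster, and 2624 CPM (2248 to 3044). An unnamed cluster led by *Creb3l1* and *Klf4* came after it, at 1826 CPM (1496 to 2206) and 1908 CPM (1767 to 2057). The mesenchymal-like cluster richest in *Egfr* stood at 821 and 684 CPM, and that led by *Hdc*, *Dcn* and *Efemp1* at 187 and 224 CPM. *Fgfr3* in mesenchymal tissue was thus unequal between its clusters.

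*Ngfr* was highest in an unnamed cluster led by *Myh8*, *Arhgap36* and *Ttn*, of which *Myh8* and *Ttn* encode muscle sarcomere proteins. It stood there at 7162 CPM (6433 to 7951) in the control and 6491 CPM (6213 to 6779) in the KO, while *Fgfr3* was at background, at 81.4 and 73.2 CPM. The mesenchymal-like cluster led by *Hdc*, *Dcn* and *Efemp1* came next, at 4569 CPM (4249 to 4906) and 2759 CPM (2639 to 2883), and the other mesenchymal-like cluster stood at 1138 and 848 CPM. An unnamed cluster with as many endothelial as mural genes (*Cldn5*, *Flt1*, *Kcnj8*, *Abcc9*) stood at 3102 CPM (2809 to 3417) and 1865 CPM (1767 to 1967). Among neurons, *Ngfr* in the deep-layer neuron-like cluster stood at 2029 CPM (1823 to 2251) and 978 CPM (920 to 1038), a log2 ratio of -1.05, past 2-fold lower, as were 4.4% of panel genes in that cluster. Its sides stood at 2121 and 1824 CPM in the control and 999 and 951 CPM in the KO, so that the sides of the sections did not overlap. *Fgfr3* was also past 2-fold lower in that cluster, at 302 CPM (226 to 395) in the control and 143 CPM (122 to 167) in the KO, close to the blank level of 102 CPM there. In the *Hopx* progenitor cluster *Ngfr* was at background, at 79.3 CPM (25.8 to 185) and 51.0 CPM (33.3 to 74.7). An unnamed cluster led by *Htr2c*, *Serpinb1b* and *Lmx1a* had 69.9% of control and 93.0% of KO cells in the progenitor zone. Of its cells 50.4% and 53.7% were pallial. Its cells in neural tissue stood at 1820 CPM (1288 to 2498, 38 transcripts) and 992 CPM (771 to 1258, 68 transcripts). How much of the *Ngfr* of the pallial zone they held was not counted.

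**Figure D4:**
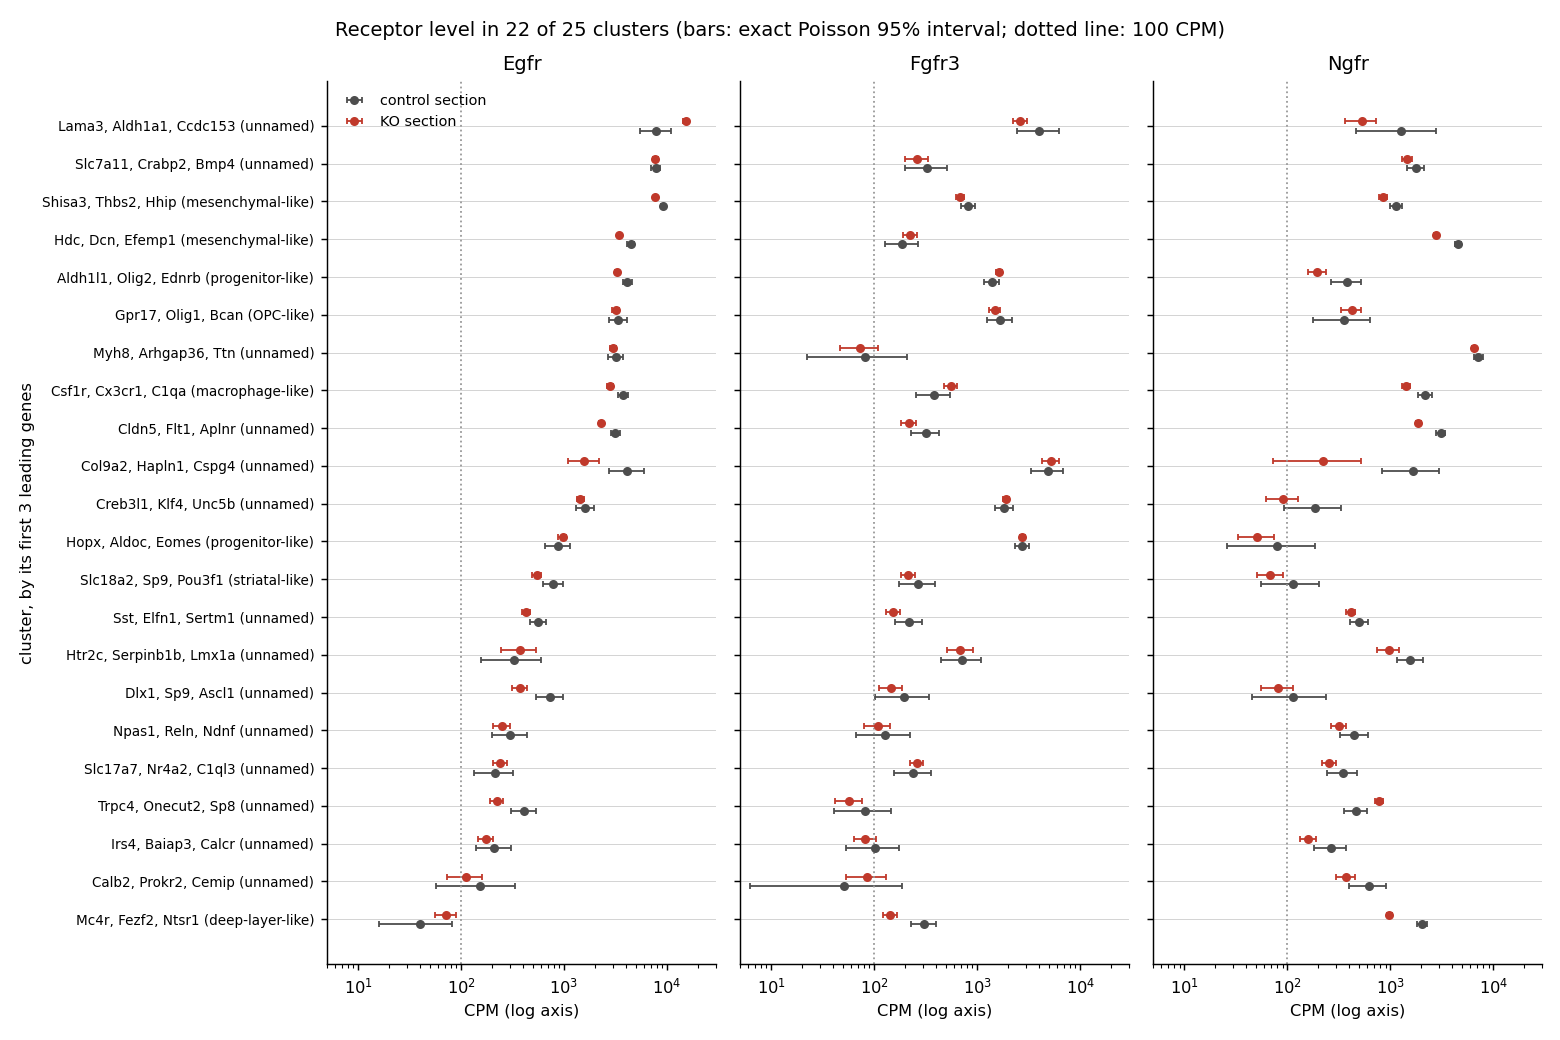
Level of each receptor in CPM on a log axis in 22 of the 25 clusters, named by their first 3 leading genes with the marker name in parentheses, for the control (grey) and KO (red) sections. Bars are exact Poisson 95% intervals, and the dotted line marks 100 CPM, about the blank level. *Egfr* runs from 15123 CPM in the *Lama3* cluster of the KO to 39.9 CPM in the deep-layer-like cluster of the control, while *Ngfr* is highest in the *Myh8* cluster and *Fgfr3* in the *Col9a2* cluster.

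Within several clusters present in both tissues the levels differed by where the cells lay, not always in the direction of the tissue. In the cluster led by *Cldn5*, *Egfr* stood at 4919 CPM (4413 to 5468) in mesenchymal and 1157 CPM (905 to 1457) in neural tissue of the control, and at 3566 CPM (3373 to 3767) and 1057 CPM (955 to 1167) in the KO. In the microglia or macrophage-like cluster it stood at 4770 CPM (4206 to 5387) and 1331 CPM (898 to 1901) in the control and at 3563 CPM (3327 to 3810) and 758 CPM (589 to 961) in the KO. *Ngfr* in the *Cldn5* cluster stood at 4104 CPM (3643 to 4608) and 1976 CPM (1642 to 2358) in the control and at 2305 CPM (2150 to 2468) and 1445 CPM (1326 to 1572) in the KO. In both clusters the levels differed in the same direction as those of the surrounding tissue. The *Aldh1l1* progenitor cluster went the other way for *Egfr*, with 1793 CPM (926 to 3132) in mesenchymal and 4294 CPM (3877 to 4743) in neural tissue of the control and 2462 CPM (2027 to 2962) and 3350 CPM (3188 to 3518) in the KO. The *Slc7a11* cluster did so for *Ngfr* in the KO, with 1369 CPM (1215 to 1537) and 2245 CPM (1696 to 2915), and its control intervals overlapped. The part of molecules assigned from neighbouring cells was not tested.

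Over the 25 clusters, *Ngfr* was lower in the KO section in 23, *Egfr* in 19 and *Fgfr3* in 17, with median log2 ratios of -0.70, -0.27 and -0.26. The whole interval lay below 0 in only 9 of these clusters for *Ngfr* and 11 for *Egfr*, and several clusters held few transcripts. How many panel genes were lower in as many clusters was not counted. The panel median in a cluster ran from -0.35 to 0.47. At 2-fold, *Ngfr* was lower in 6 clusters and *Egfr* and *Fgfr3* in 1 each, and none was higher, whereas of all pairs of a panel gene and a cluster 8% were at least 2-fold lower and 12% higher. In the *Creb3l1* cluster *Ngfr* stood at 188 CPM (93.7 to 336) in the control and 90.0 CPM (61.6 to 127) in the KO, near background, with 5.13% of genes at least 2-fold lower there. In the *Col9a2* cluster *Ngfr* rested on 11 control and 5 KO transcripts, and *Egfr* stood at 4105 CPM (2705 to 5972) and 1557 CPM (1084 to 2165), with 34.1% of genes at least 2-fold lower. In the *Lama3* cluster *Ngfr* rested on 6 and 35 transcripts, with 31.9% of genes at least 2-fold lower. In 2 other neuron clusters among the 6 the control level was near background, and 11.5% and 6% of genes were at least 2-fold lower there. Of the 6 clusters, the deep-layer neuron-like one thus held by far the most *Ngfr* transcripts, 356 in the control and 1085 in the KO. In the progenitor-like clusters *Egfr* had log2 ratios of 0.15 (-0.36 to 0.68) in the *Hopx* and -0.33 (-0.54 to -0.12) in the *Aldh1l1* cluster. *Fgfr3* had 0.01 (-0.28 to 0.31) and 0.24 (-0.10 to 0.60), intervals that include 0.

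Few progenitor cells held both *Egfr* and *Fgfr3* once thinned to a low, equal depth. To compare cells of unequal depth, each cell of the progenitor-like clusters was thinned to 25 transcripts, which left out 1415 of the control cells and 178 of the KO cells with fewer. Of the remaining 3415 control cells, 6.06% held *Egfr*, 4.57% *Fgfr3* and 0.703% *Ngfr*, and of 9368 KO cells 4.81%, 4.96% and 0.331%. In the deep-layer neuron-like cluster thinned likewise, *Egfr* was found in 0.108% and 0.159% and *Fgfr3* in 0.567% and 0.371% of cells, at median depths of 32 and 99 transcripts before thinning, against 31 and 88 in the *Aldh1l1* and 28 and 92 in the *Hopx* cluster. Both *Egfr* and *Fgfr3* were found in 4 control cells where independence gave 9.46 (ratio 0.42, 0.12 to 1.08) and in 20 KO cells where it gave 22.4 (ratio 0.89, 0.55 to 1.38). Both intervals include 1, so that a departure from independence was not detectable at this depth. Over the cells of the progenitor zone thinned likewise, the ratio was 0.61 (0.17 to 1.57) in the control and on the other side of 1 in the KO, at 1.38 (0.84 to 2.13), from 20 cells against 14.5 expected. Of the 17441 zone cells of the control 12646 were left out for fewer than 25 transcripts, while 15977 of 17034 KO cells were kept. The control ratio thus covers the deeper minority of its zone. Without thinning, 7.47% of 4830 control cells held *Egfr*, 5.73% *Fgfr3* and 11 cells both, and of 9546 KO cells 14.6%, 17.8% and 278 cells. With the expected number summed within 10 classes of depth, a setting chosen after seeing the data, the ratio was 0.49 (0.25 to 0.88) in the control, from 11 cells, and 0.93 (0.82 to 1.05) in the KO, from 278 cells. The expected numbers for the pooled progenitor-like clusters, thinned or not, took no account of the unequal receptor shares of the *Aldh1l1* and *Hopx* clusters. By the same classes of depth the *Aldh1l1* cluster alone gave control and KO ratios of 0.79 (0.39 to 1.41) and 0.93 (0.79 to 1.09). Within the *Hopx* cluster the sections differed in direction, with 0 control cells against 4.07 expected (0 to 0.91 times) and 122 KO cells against 102 (1.19, 0.99 to 1.42).

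The share of cells with *Egfr* was the larger in the *Aldh1l1* cluster, and the share with *Fgfr3* in the *Hopx* cluster. In the *Aldh1l1* cluster, 8.28% of thinned control cells (7.12 to 9.55) held *Egfr* alone and 3.0% (2.31 to 3.83) *Fgfr3* alone, and in the KO 7.19% (6.48 to 7.95) and 3.49% (3.0 to 4.05). In the *Hopx* cluster the shares were 2.22% (1.51 to 3.16) and 6.75% (5.47 to 8.22) in the control and 2.33% (1.90 to 2.81) and 5.61% (4.96 to 6.33) in the KO. At 25 transcripts per cell 0 control cells and 4 of 4472 KO cells of the *Hopx* cluster held both, and without thinning 0 of 2043 control cells, at a median of 28 transcripts, and 122 of 4567 KO cells (2.67%), at a median of 92, so that the share with both cannot be told apart from depth. Among oligodendrocyte precursor-like cells, by classes of depth, both were found in 74 KO cells against 40.7 expected (ratio 1.82, 1.43 to 2.28) and in 9 control cells against 7.05 (1.28, 0.58 to 2.42). Thinned, they gave 3 KO cells against 2.75 (1.09, 0.22 to 3.19) and 3 control cells against 1.22 (2.46, 0.51 to 7.18), which include 1. In the mesenchymal-like cluster led by *Hdc*, *Egfr* and *Ngfr* occurred together, by classes of depth, in 150 control cells against 122 expected (1.23, 1.04 to 1.44) and in 462 KO cells against 398 (1.16, 1.06 to 1.27). Thinned, the ratios were 1.27 (0.88 to 1.77) and 1.43 (0.94 to 2.10), which include 1. In the other mesenchymal-like cluster, led by *Shisa3*, the ratio by classes of depth was 0.89 (0.67 to 1.16) and 0.90 (0.77 to 1.05) for *Egfr* with *Ngfr*, and 0.74, with an interval that includes 1, and 0.82 (0.71 to 0.95) for *Egfr* with *Fgfr3*. For *Fgfr3* with *Ngfr* it was 0.42 (0.087 to 1.24) and 0.55 (0.32 to 0.88), in the setting chosen after seeing the data. Thinned control cells held that pair 0 times against 1.39 expected (0 to 2.66 times), which includes 1. Thinned, *Egfr* with *Fgfr3* gave 0.82 (0.35 to 1.61) and 0.56 (0.22 to 1.15), which include 1. *Ngfr* was too sparse in thinned progenitors for a pair with either receptor, with 0 to 3 cells per pair and section. By classes of depth, KO progenitors held it with *Egfr* in 24 cells against 20.8 expected (1.15, 0.74 to 1.71). With *Fgfr3* it was found in 17 against 26.6 (0.64, 0.37 to 1.02). Both intervals include 1, and the control had 4 and 3 such cells. These shares and pairs were not split by tissue. In the *Aldh1l1* cluster, cells in mesenchymal tissue held 18 of 37 control and 45 of 102 KO *Ngfr* transcripts.

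The genes with the most similar pattern to each receptor were named by Pearson's r of log2(CPM + 10), ranked by the lower of the 2 sections and given as a description, since clusters and squares share a library and its depth. Over the 25 clusters *Egfr* was most like *Pmp22* (0.85 in both sections), *Hhip* (0.81 and 0.77), *Igfbp5* (0.76 and 0.78), *Daam2* (0.77 and 0.76) and *Fgf2* (0.76 and 0.79). *Fgfr3* was most like *Sox9* (0.67 and 0.77), *Mfge8* (0.67 and 0.73) and *Adgra3* (0.65 and 0.76), followed in rank by *Daam2* and *Drd3*. *Ngfr* was most like *Il33* (0.68 and 0.75), *Efemp1*, *Parm1*, *Acta2* and *Inpp4b*. Over squares of 200 µm (357 in the control and 365 in the KO), *Egfr* was most like *Timp3*, *Thbs2*, *Pmp22*, *Igf2* and *Daam2*, with r of 0.56 to 0.61 in the control. *Fgfr3* was most like *Sox9* (0.43 and 0.50), *Ptpru*, *Aldoc*, *Ednrb* and *Top2a*, and *Ngfr* most like *Col15a1* (0.52 and 0.61), *Igf2*, *Creb3l1*, *Osr1* and *Dcn*. Of the receptors, *Egfr* and *Fgfr3* were most alike over clusters (0.49 and 0.57), and *Fgfr3* and *Ngfr* least (-0.10 and -0.22). Over squares the order of the first pairs was the reverse, with 0.21 and 0.36 for *Egfr* and *Ngfr*, 0.19 and 0.27 for *Egfr* and *Fgfr3*, and -0.06 and 0.03 for *Fgfr3* and *Ngfr*. That held only with both tissues pooled: *Egfr* and *Ngfr* had -0.02 and 0.04 in mostly neural and -0.12 and 0.12 in mostly mesenchymal squares, against 0.17 and 0.29, and 0.39 and 0.32, for *Egfr* and *Fgfr3*.

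Of 102 genes listed for the EGF, FGF and neurotrophin pathways and other receptor tyrosine kinases, 21 were on the panel. At 2-fold, 1 was higher in the KO section and 0 lower, against 3.2% and 1.2% of the panel, and their median log2 ratio was 0.22. The gene that passed was *Epha3*, an ephrin receptor, at 1639 CPM in the control and 5131 CPM in the KO. The FGF ligand *Fgf2* stood at 358 and 415 CPM and was higher in mesenchymal than in neural tissue by 2.94 and 3.14 on the log2 scale. *Erbb4*, a neuregulin receptor of the EGF receptor family, was lower in mesenchymal tissue by log2 ratios of -3.31 and -3.42, whereas *Egfr* was higher there. *Spry2*, a feedback inhibitor of FGF signalling, stood at 1522 and 1340 CPM with log2 ratios of mesenchymal over neural tissue of 0.40 and 0.68. *Etv1*, listed with the same family, went the other way, with -0.57 and -0.63, and *Fgfr3* had 0.50 and 0.79. *Bdnf*, a neurotrophin ligand, stood at 114 and 161 CPM, close to the blank level.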

How the data were processed

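MERFISH was run on 1 control and 1 KO section. The instrument software decoded the molecules, segmented the cells and counted transcripts, and the authors deposited these raw counts per gene and cell, cell positions and volumes (volume being a signal in cubic µm) and molecule positions; software version and segmentation model are not given in the sources used here. Counts were summed over cells and divided by their panel transcripts (Python 3.11.15, numpy 2.4.6, scipy 1.17.1, pandas 2.3.3), so that a level depends on the other panel genes. Tissue lists were summed in bins of 25 µm and smoothed with an SD of 50 µm. Cells with at least 20 transcripts were clustered with both sections together and without the receptors (Seurat 5.3.0). Reciprocal PCA and Louvain resolution 0.8 were taken from the study's methods, whereas the transcript minimum and the 30 principal components were set here and the study's subclustering was not followed. Leading genes were the 10 with the highest fold over all other cells. Doublets were not removed, and leaving out the 1% largest cells was an alternative. Receptors, pathway genes at least 2-fold different, the 5 genes most alike, leading genes and marker genes were named by rule. *Spry2*, *Etv1* and *Bdnf* were named outside these rules. The receptors and lists were chosen with earlier results of these data known. Scripts were tested on simulated data. The alternatives concerned the cells, molecules, planes and scale counted, the tissue limits, the clustering and the thinning. With 1 section per group no test was made, and no sample was left out. Some clusters and genes are not reported here.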

Additional observations from a re-analysis of the deposited data

Results flagged for a closer look

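Against the lower *Egfr* levels of the KO section in most clusters, the unnamed cluster led by *Lama3*, *Aldh1a1* and *Ccdc153* had a log2 ratio of KO over control of 0.95 (0.39 to 1.54), while in 11 clusters the whole interval lay below 0. In the *Lama3* cluster 83.6% of the 304 genes counted in both sections had a lower log2 ratio than *Egfr*. With the KO thinned to the control total before clustering, the highest *Egfr* in the KO was 7223 CPM, in the *Shisa3* cluster. That ranking took only clusters with at least 100 cells in each section. The *Lama3* cluster held 115 control and 570 KO cells, and the KO level was 16531 CPM on side A and 7679 CPM on side B, against 9934 and 6144 CPM in the control. *Ngfr* had a log2 ratio of 0.76 (0.28 to 1.25) in the unnamed cluster led by *Trpc4*, *Onecut2* and *Sp8*, at 460 CPM in the control and 777 CPM in the KO, while in 9 clusters the whole interval lay below 0. The control sides of that cluster were unequal, at 176 and 666 CPM, and the KO sides stood at 844 and 690 CPM. In it 83.8% of the 499 genes counted in both sections had a lower log2 ratio than *Ngfr*. In both cases the difference between clusters was not tested.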

How the results depend on the processing

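Of 123 alternatives to 27 results, 85 left the value within its counting interval, 34 moved it and 4 turned the direction of a value whose interval lay on 1 side of no difference; the cause was not tested. Per segmented cell, the log2 ratios of KO over control turned to 1.78 for *Egfr*, 2.04 for *Fgfr3* and 1.66 for *Ngfr*, in sections whose median cells held 20 and 101 transcripts. With cells of at least 20 transcripts only they were -0.57 for *Egfr* and -0.71 for *Ngfr*, and with imaging plane 0 only -0.24 for *Egfr*, -0.041 for *Fgfr3* and -0.48 for *Ngfr*. Per square mm, the log2 ratio of mesenchymal over neural tissue turned to -0.11 for *Fgfr3* in the KO, and was 0.17 in the control. For *Egfr* it was 2.68 in the control and 2.22 in the KO, and for *Ngfr* 2.15 and 1.55. It was 3.03 for *Egfr* in the KO at a mesenchymal limit of 30% and 2.88 at 70%, 2.29 for *Ngfr* in the KO at 70%, and 2.20 for *Ngfr* in the control with cells of at least 20 transcripts. Between the progenitor zone and the remaining neural tissue of the KO, the log2 ratio per square mm was 1.45 for *Egfr*, 2.75 for *Fgfr3* and -1.83 for *Ngfr*. A smoothing SD of 25 µm gave 1.86 for *Egfr* in the KO and -1.62 for *Ngfr* in the control. With the highest of the 10 progenitor classes as the zone it was 3.13 for *Fgfr3* in the control, and 3.48 for *Fgfr3* and -2.34 for *Ngfr* in the KO.

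Under each clustering, only clusters with at least 100 cells in each section were ranked. The cluster with the highest *Egfr* in the control was the *Lama3* cluster at resolution 0.4, at 7882 CPM, and the *Shisa3* cluster at 9896 CPM with the receptors kept in the clustering. With the KO thinned to the control total before clustering, the highest *Egfr* in the KO was 7223 CPM, in the *Shisa3* cluster. The highest *Fgfr3* was then 2560 CPM in the control, in the *Hopx* cluster, and 2846 CPM in the KO, in a cluster led by *Aldh1l1* and *Ednrb*. At resolution 1.2 the highest *Fgfr3* was in the *Lama3* cluster in the control, at 4109 CPM, and in the *Hopx* cluster in the KO, at 2771 CPM. A cluster led by *Col9a2*, *Thbs2* and *Hhip* then held 3457 control cells. To which clusters the cells of the small *Col9a2* cluster went was not followed. *Ngfr* stayed highest in the *Myh8* cluster, at 6300 CPM in the control and 5955 CPM in the KO at resolution 1.2, and at 6149 CPM in the KO when thinned. Cells with both *Egfr* and *Ngfr* over expectation went to 0 in the control with 50 transcripts per cell or with all cells of the progenitor zone that held 25, and to 0 in the KO without the 1% largest cells. In the progenitor clusters, co-detection ratios at 25 transcripts per cell had intervals that include 1, and some crossed it: with all cells of the progenitor zone that held 25 transcripts, the KO ratio went from 0.89 to 1.38 for *Egfr* with *Fgfr3*, from 1.34 to 0.60 for *Egfr* with *Ngfr* and from 0.65 to 1.63 for *Fgfr3* with *Ngfr*. No paired analysis was possible because each genotype had 1 section. Depth limits the control, where 50.9% of cells reached 20 transcripts.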
